A study of Arabidopsis thaliana with 11 samples.

Results

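The regions described here are binding sites of the transcription factor HY5 that lie close upstream of a single gene. They were chosen from the peaks of HY5ox replicate 1 that overlapped a peak in both other HY5ox libraries by 1 bp or more, which gave 5101 consensus peaks of 12447 listed. A peak was kept when the authors' table placed it in the 2000 bp promoter of exactly 1 gene and its centre lay 0 to 500 bp upstream of that gene's start site. This left 1485 peaks, 29.1% of the consensus, each in front of a different gene. Both the presence in HY5ox and the position were used for the choice, so their values in HY5ox are given as description.

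HY5 is a basic leucine zipper protein that binds DNA elements with an ACGT core and drives the change from growth in darkness to greening in light. In darkness it is degraded with the help of the COP1 and SPA proteins, and in light it accumulates and acts on many promoters, its own among them. HY5 has been described as a regulator of pigment and flavonoid synthesis, of the circadian clock and of hormone responses, abscisic acid among them.

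Chromatin came from whole Arabidopsis thaliana seedlings of ecotype Columbia. All samples had cold stratification for 7 days at 4 °C. Then came 3 days of darkness at 21 °C followed by simulated white light (2.5 h, 100 µmol per square metre per second). Of 11 samples, 8 carried HY5 with the FLASH tag, which joins Strep, His and Flag epitopes, under the viral 35S promoter, so the protein was made in most cells and not in its native pattern. HY5ox (35S:FLASH-HY5, 3 libraries) is the protein without modification, HY5-VP16 (35S:FLASH-HY5-VP16, 3 libraries) carries an activation domain and HY5-SRDX (35S:FLASH-HY5-SRDX, 2 libraries) a repression domain. The 3 untagged controls (Col-0 in sets 1 and 3, hy5 in set 2) went through the same Flag immunoprecipitation and enter here only through the peak caller. Whether a construct's libraries stem from independent transformants or separately grown seedlings is not given in the labels, and the p-values here cover only library-to-library spread, which may be technical. In set 1, a single Col-0 control served both HY5-SRDX libraries, HY5-VP16 replicates 1 and 2, and HY5ox replicate 1. Set 2 held HY5ox replicate 2, collected and processed apart from the other samples, and set 3 held HY5ox replicate 3 and HY5-VP16 replicate 3. Tagged libraries held 11.5 to 56.0 M tags and their lists 2958 to 20509 peaks. The shortest list was that of HY5-VP16 replicate 3, where 1.83% of tags fell in peaks (5.94% or more elsewhere), and the longest that of HY5-SRDX replicate 1.

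The close upstream peaks gathered near the start site. In HY5ox replicate 1 the median distance of the centre from the start was 135 bp, and the middle 50% of peaks lay between 70 and 220 bp. The first 100 bp held 547 peaks (36.8%) and the next 100 bp 501 (33.7%), while the outer 100 bp of the window held 100 (6.73%). With intervals of 273 bp, 752 of the 1485 peaks in replicate 1 reached across the start site itself. The start was on the plus strand for 752 genes and on the minus strand for 733, and 310 genes had several listed starts. At the inner limit, the nearest members had their centres 0 bp from the start of GLX2-5 (AT2G31350) and AT4G29905, and the nearest peaks left out lay 1 and 2 bp past the starts of AT3G55050 and AT1G26690 (distances of -1 and -2). At the outer limit, members lay 500 bp from NF-YA6 and PAB2, and peaks 501 and 502 bp from ABCB21 and AT2G35880 were left out.

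**Figure D1:**
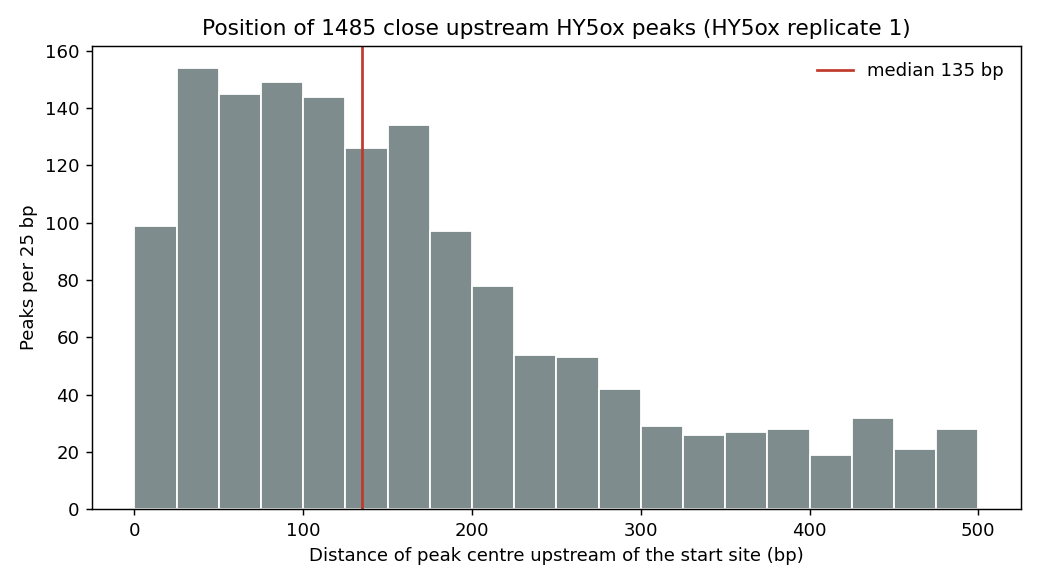
Histogram of the 1485 close upstream peaks of HY5ox replicate 1 by the distance of the peak centre from the start site (x axis, bp) in bins of 25 bp (y axis, number of peaks). The line marks the median of 135 bp, and most peaks lie within the first 200 bp.

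Peaks of other libraries were matched by overlap with the HY5ox replicate 1 peak, which itself keeps their centres near, so the following distances are a description of the matched peaks. The matched centres had a median distance of 125 bp in HY5ox replicates 2 and 3. It was 128 to 134.5 bp in the HY5-VP16 libraries, and 162 and 147.5 bp in HY5-SRDX replicates 1 and 2. Each median covers only the members listed in that library, and these differ between libraries. Relative to HY5ox replicate 1, the median absolute shift of a centre was 38 and 32 bp in HY5ox replicates 2 and 3, 40, 44 and 30 bp in the HY5-VP16 libraries, and 56 and 46 bp in HY5-SRDX. Within 100 bp of the original centre lay 87.1% and 91.5% of peaks in HY5ox replicates 2 and 3, 84.0% to 93.7% in HY5-VP16. The shares were lower in HY5-SRDX, at 74.8% and 80.8%. The shift had no common direction, with medians between -5 and 5 bp (5 and 1 bp in HY5-SRDX replicates 1 and 2).

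Of the 1485 genes, 1446 were protein-coding in the RefSeq table, which is 5.27% of its 27432 nuclear protein-coding genes. The rest comprised 11 genes annotated as non-coding RNA, 7 as long non-coding RNA, 5 as transfer RNA, 3 as microRNA, 1 as small nucleolar RNA, 8 as pseudogenes of either kind and 4 not in the table. The protein-coding genes had a median length of 2639.5 bp, against 2046 bp for all other protein-coding genes and 2388.5 bp for genes whose consensus peak lay over 500 bp upstream. A further HY5ox replicate 1 peak was assigned to 340 of the genes (22.9%), with up to 4 peaks on a gene. The peak also touched the body of a neighbouring gene in 158 cases (10.6%), so for these the gene in front is not the sole candidate target.

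The best-ranked member and the one in rank 3 were both phosphatase genes of abscisic acid signalling. A peak's place is given as its percentile rank by the caller's score within its own list, where 0 is the strongest, and its strength as the authors' fold, the ratio of its tags to those of the control. PP2CA (AT3G11410), a clade A protein phosphatase 2C that blocks abscisic acid signalling, led with a mean rank of 0.0715 in HY5ox. Its peak (chromosome 3, 3585935 to 3586207, TAIR10) lay 281 bp upstream of the start and held 40.52, 24.25 and 33.83 times the control tags in HY5ox replicates 1 to 3. It held 32.14, 29.06 and 18.92 times the control in the HY5-VP16 libraries and 19.43 and 27.62 times in HY5-SRDX. All 8 libraries placed it in the top 0.297% of their lists. A phosphatase of the same clade, HAI2 (AT1G07430), followed in rank 3, with a mean rank of 0.161 and folds of 12.05, 9.27 and 28.80 in HY5ox. Its peak was listed in the 3 HY5-VP16 libraries (folds of 9.73, 7.96 and 13.54) and in HY5-SRDX replicate 2 (5.66), but not in HY5-SRDX replicate 1.

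HY5 was itself a member. Its peak (chromosome 5, 3594894 to 3595166, minus strand gene AT5G11260) had its centre 38 bp upstream of the start. The tags per 10 M were 286.9, 238.1 and 399.8 in the HY5ox libraries, 323.1, 213.4 and 287.5 in HY5-VP16, followed by 78.8 and 193.9 in HY5-SRDX. By rank it came sixth of the members in HY5ox (mean 0.269) and first of the members found in all 5 other libraries (mean 0.0630 over HY5-VP16 and HY5-SRDX). The rank was 0 in HY5-VP16 replicates 2 and 3.

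Other leading members in HY5ox had varied roles. ABCI19 (AT1G03905), an ATP-binding cassette protein gene, had a mean rank of 0.149 and folds of 22.04, 22.72 and 20.98 in HY5ox. CNX1 (AT5G61790), which encodes the endoplasmic reticulum chaperone calnexin, had a mean rank of 0.471, and MBD10 (AT1G15340), a methyl-CpG-binding domain protein gene, 0.548. The remaining genes of the 10 were AT3G15520, AT1G13640, AT1G19490 and AT4G14900, with mean ranks between 0.178 and 0.457. All 10 peaks were listed in every HY5-VP16 library, and 6 of them in both HY5-SRDX libraries. In the 4 others (HAI2, AT3G15520, AT1G13640 and AT4G14900) it was HY5-SRDX replicate 1 that listed no peak. Of the 372 strongest members by mean HY5ox rank, each HY5-VP16 library listed 93.5% to 96.2%. The shares of these 372 were 51.6% in HY5-SRDX replicate 1 and 84.9% in replicate 2, so the 10 are read as strong members in general.

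Among the members found in all 5 libraries that did not serve for the choice, HY5, PP2CA and MBD10 (mean rank 0.748) were followed by MYBR1 (AT5G67300, 0.802), a MYB factor of stress and abscisic acid responses also known as MYB44. Its peak lay 105 bp upstream and held 22.91, 25.41 and 7.08 times the control in HY5-VP16 and 24.73 and 17.96 times in HY5-SRDX. AT1G56220 (0.803), AT1G23710 (0.878), the tandem zinc finger gene OZF2 (AT4G29190, 0.904), AT1G07870 (0.952), AT5G13760 (1.07) and ABCI21 (AT5G44110, 1.38) completed the 10. The ABC protein genes ABCI19 and ABCI21 thus both appear among the named members, with peaks 81 and 125 bp upstream of their starts.

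**Figure D2:**
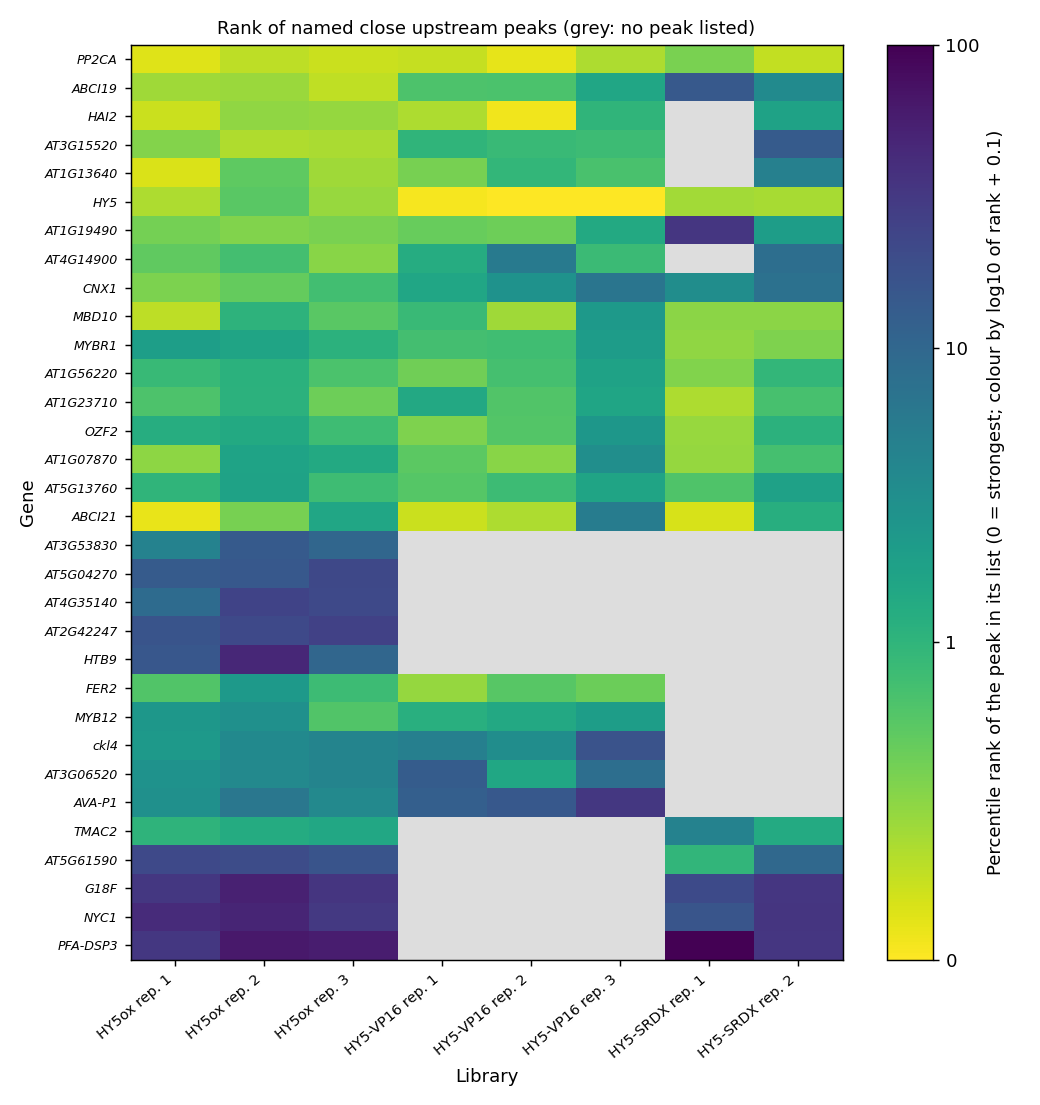
Heat map of the percentile rank of 32 named close upstream peaks (rows, by gene) in each of the 8 libraries (columns). Colour runs from yellow (rank 0, the strongest peak of a list) to dark violet (rank 100), on the log10 of rank plus 0.1, and grey marks libraries with no overlapping peak. The upper 17 genes lead the HY5ox or the other libraries, and the grey blocks mark genes chosen for having no peak in HY5-VP16, in HY5-SRDX or in either.

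Gene lists for the pathways of light-grown seedlings were then read against the members. The 15 lists held 261 genes, of which 42 (16.1%) carried a close upstream peak, against the 5.27% of all protein-coding genes given above. The lists and the members were both chosen with HY5 binding results known, so the counts are description. Many listed genes were bound elsewhere, for example 24 of 36 light signalling genes had a consensus peak assigned in some position and 6 a close upstream one.

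Genes of protein folding and stress in the endoplasmic reticulum had the largest share of the 15 lists, 5 of 10. They were CNX1, the chaperone genes BIP1 and BIP2, and the membrane-bound or spliced basic leucine zipper factors BZIP28 and BZIP60, which act in the response to unfolded proteins. BIP2 (AT5G42020) had folds of 11.22, 10.44 and 12.98 in HY5ox, 7.34, 10.08 and 6.88 in HY5-VP16, followed by 3.27 and 4.88 in HY5-SRDX. BIP1 (AT5G28540) had 8.34, 7.61 and 10.71 in HY5ox, 9.38, 10.10 and 5.54 in HY5-VP16, followed by 3.09 and 6.03 in HY5-SRDX. For BIP1 and BIP2, both HY5-SRDX values lay below every HY5ox value. Their peaks ranked at 37.9 to 97.5 in HY5-SRDX against 2.14 to 14.2 in the other 6 libraries. Over all listed members the median fold was 6.82 and 8.11 in HY5-SRDX and 8.5, 4.76 and 6.52 in HY5ox. How many other members had the order of BIP1 and BIP2 was not counted. Since BIP1 and BIP2 are near-identical paralogs, reads of their coding parts may be split between them. The list did not share this order, since CNX1 had folds of 53.17 and 32.38 in HY5-SRDX against 186.33, 22.19 and 19.58 in HY5ox. BZIP28 (AT3G10800) had 13.70 in HY5-SRDX replicate 2 against 15.85, 6.99 and 8.74 in HY5ox, and BZIP60 (AT1G42990) 6.93 against 22.21, 5.26 and 11.40. Both factors were listed in 7 libraries, without HY5-SRDX replicate 1, and 4 of the 5 peaks lay within 85 bp of the start.

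Abscisic acid and other hormone genes gave 4 of 27, and each was listed in all 8 libraries. Next to PP2CA these were ABF3 (AT4G34000) and ABI5 (AT2G36270), basic leucine zipper factors that switch on abscisic acid responses, and the ethylene response repressor ERF11 (AT1G28370). ABF3 had folds of 50.59, 12.23 and 12.72 in HY5ox, 33.97, 45.91 and 8.12 in HY5-VP16, followed by 50.44 and 45.34 in HY5-SRDX. ERF11 had 82.09, 4.48 and 9.05 in HY5ox, 43.71, 54.04 and 3.55 in HY5-VP16, followed by 64.08 and 63.69 in HY5-SRDX. For ABF3 and ERF11 the 5 libraries of set 1 had folds of 33.97 or more. The 3 libraries of sets 2 and 3 had folds of 12.72 or less. Over all listed members the median fold was also higher in set 1, at 6.82 to 8.5, than in sets 2 and 3, at 4.04 to 6.52. For ABF3, ERF11 and the medians, the fold over the control thus went with the set, and the part of the set was not tested. Not every member had this order, since HAI2 had its highest fold, 28.80, in HY5ox replicate 3. ABI5 had mean ranks of 7.36 in HY5ox and 21.1 in the other libraries.

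Clock genes gave 4 of 22. The morning factor LHY (AT1G01060) and the blue light receptor of the evening FKF1 (AT1G68050) were listed in all 8 libraries, with mean HY5ox ranks of 3.36 and 4.86. LHY held 24.80, 8.56 and 12.61 times the control in HY5ox, 12.35, 9.73 and 4.82 in HY5-VP16, followed by 8.73 and 14.30 in HY5-SRDX. Its partner CCA1 (AT2G46830) and the pseudo-response regulator gene PRR5 (AT5G24470) were listed in 7 libraries each, with weaker mean ranks of 26.2 and 26.4. CCA1 lacked a peak in HY5-SRDX replicate 1 and PRR5 in HY5-VP16 replicate 2.

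Light signalling genes gave 6 of 36: HY5, the phytochrome A import factors FHL and FHY1, the photoreceptor gene PHYC and the repressor genes SPA2 and SPA4. After HY5, FHL (AT5G02200) came closest to full coverage with 7 libraries and a mean HY5ox rank of 21.3. SPA2, with a centre 11 bp upstream of its start, ranked at 81.1 in HY5ox and was listed in no HY5-SRDX library, as were PHYC and SPA4. B-box zinc finger genes gave 5 of 23. BBX28 (AT4G27310), an inhibitor of HY5 activity, was listed in all 8 libraries with a mean HY5ox rank of 1.18. Its peak centre lay 460 bp upstream in HY5ox replicate 1, but 524 and 548 bp in HY5ox replicates 2 and 3. In the HY5-VP16 and HY5-SRDX libraries it lay 470 to 615 bp upstream. BBX7 (COL9), BBX8, BBX24 (STO) and BBX31 were listed in 7 libraries each, with HY5ox ranks from 13.1 to 34.5.

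Ultraviolet, flavonoid, pigment and cold genes together gave 9 members, with mean HY5ox ranks from 2.02 (MYB12) to 46.5 (AT4G33980). The photolyase genes PHR1 (AT1G12370) and UVR3 (AT3G15620), which repair ultraviolet damage of DNA, were 2 of 8 photoprotection genes, with mean HY5ox ranks of 6.35 and 7.83 and 7 libraries each. MYB12 (AT2G47460), the activator of flavonol synthesis genes, and C4H were 2 of 29 flavonoid genes. CAO (CH1), the chlorophyllide a oxygenase gene, was listed in all 8 libraries and HEMA1, for the first step of tetrapyrrole synthesis, in 6, as 2 of 20 pigment genes. CBF3 (DREB1A), COR27 and AT4G33980 were 3 of 7 cold response genes, in 7, 6 and 5 libraries and with mean HY5ox ranks of 8.49, 39.4 and 46.5. Photosynthesis genes gave LHCA4 and LHCB4.2 (2 of 18, HY5ox ranks of 40.8 and 44.1), nutrient genes BTS and APR1 (2 of 16), and shade and growth genes YUC8 (1 of 12).

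The epidermal patterning list gave 0 of 9 and the seed and flower list, of genes little used in seedlings, 0 of 13. Housekeeping genes, included as highly expressed loci, gave 4 of 11, namely GAPC1 and UBQ10 in all 8 libraries and UBC9 and ACT7 in 7. Their median HY5ox rank was 26.9. It was 4.37 for the endoplasmic reticulum list, 5.48 for hormone, 15.5 for clock and 30.5 for light signalling genes. For photoprotection, flavonoid, B-box and pigment genes it was 7.09 to 21.3. The cold, photosynthesis, shade and growth, and nutrient lists were weaker than the housekeeping genes, at 39.4 to 49.1. Of the 15 lists, 2 had a higher share than the housekeeping genes (endoplasmic reticulum and cold), and the part of expression level in the counts was not tested.

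By symbol, the families with most members among those of 20 or more genes were the cytochrome P450 genes (CYP, 8 of 229 or 3.49%) and the MYB factors (8 of 120, 6.67%). They were followed by the NAC factors (7 of 79, 8.86%), genes named EMB after embryo-defective mutants (6 of 112, 5.36%), WRKY factors (6 of 67, 8.96%) and UGT glycosyltransferases (5 of 58, 8.62%). Symbols were split by letter case, and the embryo-defective genes written emb were counted apart, with 1 of 48 (2.08%). Arabinogalactan protein genes (AGP, 4 of 30) and EXO genes (4 of 24) had shares of 13.3% and 16.7%. All shares rest on few genes. WRKY genes also had 13 members with a consensus peak over 500 bp upstream, more than the 6 with a close one. The strongest of each family were CYP71B34 (HY5ox rank 12.7), MYB12 (2.02), NAC2 (10.5), EMB2766 (20.1), WRKY2 (14.8), UGT84A2 (12.05), AGP15 (5.02) and EXO70H4 (13.3).

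The libraries of HY5-VP16 and HY5-SRDX, which did not serve for the choice, showed how far the close upstream sites were listed again. HY5-VP16 replicate 1 overlapped 1226 of the 1485 (82.6%, 95% Wilson interval 80.5% to 84.4%, against 80.7% of all consensus peaks). HY5-VP16 replicate 2 overlapped 1130 (76.1%, 73.9% to 78.2%, against 76.3%) and replicate 3 669 (45.1%, 42.5% to 47.6%, against 46.4%). HY5-SRDX replicate 1 overlapped 515 (34.7%, 32.3% to 37.1%, against 34.5%) and replicate 2 1006 (67.7%, 65.3% to 70.1%, against 66.0%). In each library the share was near that of the consensus as a whole, and the intervals cover counting error only. All 5 libraries listed 262 members (17.6%, against 17.7%), and none of them listed 70 (4.71%, against 5.43%). All 3 HY5-VP16 libraries listed 571 members (38.5%, against 38.9%) and both HY5-SRDX libraries 457 (30.8%, against 30.4%). The remaining members were found in 1 (163), 2 (277), 3 (333) or 4 (380) of the 5. The authors' merged table of peaks found in all libraries covered 281 members, including the 262, and these overlapped 281 of its 981 peaks (28.6%).

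The share did not follow the length of the list. HY5-SRDX replicate 1 had the longest list, and its 515 matched members were 2.51% of it, while HY5-VP16 replicate 3 had the shortest list with 22.6% of it matched. The mean share was 67.9% ± 20.1 in HY5-VP16 (SD, n = 3) and 51.2% ± 23.4 in HY5-SRDX (SD, n = 2). The difference of 16.7 percentage points was less than the spread between libraries (two-sided exact permutation p = 0.5, smallest possible 0.1). It moved with single libraries and with the peak threshold: it was 5.61 points with peaks 5-fold over control, 0.157 points without HY5-SRDX replicate 1, 33.2 without HY5-SRDX replicate 2 and 28.1 without HY5-VP16 replicate 3. Leaving out HY5-VP16 replicate 1 gave 9.36 points. Within set 1 it was 28.1 points (exact permutation p = 0.333, the smallest possible for 2 libraries against 2).

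Close upstream peaks were listed again less often than peaks over 500 bp upstream of a single gene, in each of the 5 libraries. There were 942 such far peaks, of which 82.9%, 77.6% and 48.4% were overlapped in HY5-VP16 replicates 1 to 3, and 40.8% and 72.1% in HY5-SRDX replicates 1 and 2. Close minus far was -0.350, -1.51 and -3.36 percentage points in the HY5-VP16 libraries and -6.08 and -4.34 points in the HY5-SRDX libraries. The mean of close minus far was -3.13 points ± 2.27 (SD, n = 5 libraries), with a two-sided exact sign-flip p of 0.0625, the smallest that 5 libraries allow, and 0.25 after Benjamini-Hochberg adjustment over 4 comparisons. The libraries share controls, so they are not fully independent. When far peaks were weighted to the HY5ox strength of the close ones, a setting added after the data were seen, as was the restriction to members with 1 listed start used below, the mean was -3.56 points. With the consensus taken from HY5ox replicates 1 and 3 alone it was -0.996, and with lists cut to the same length it was -6.08, which are the settings that moved it by over 1.5 times along with overlap of 50% (-1.98) and a limit of 1000 bp (-1.70).

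Against peaks upstream of 2 or more genes, gene body peaks and all other consensus peaks, the differences did not hold in all libraries. The 188 peaks at or past the start of 1 gene were overlapped less often than close peaks in all 5 libraries. Their shares were 72.9%, 72.3% and 42.0% in HY5-VP16 replicates 1 to 3, and 23.4% and 56.4% in HY5-SRDX replicates 1 and 2. This last difference was not tested. The 1623 peaks upstream of 2 or more genes were overlapped less often than close peaks in 4 of 5 libraries, with a mean difference of 2.08 points ± 2.29 (SD, n = 5; exact sign-flip p = 0.1875, adjusted 0.375). It was 1.31 points with peaks 5-fold over control, 0.855 with lists of equal length and 1.29 for members with 1 listed start. The 368 peaks in gene bodies alone differed by 4.11 points ± 9.08 (SD, n = 5; exact sign-flip p = 0.375, adjusted 0.4375), where HY5-VP16 replicate 3 went the other way with 45.1% of close and 56.0% of gene body peaks. Without that library the mean was 7.86 points, and without HY5-SRDX replicate 2 it was 1.99. With peaks 5-fold over control it was 8.59, with the consensus of HY5ox replicates 1 and 3 it was 8.30, and weighted by strength 7.15. Against all 3616 other consensus peaks the excess was 0.623 points ± 1.87 (SD, n = 5; positive in 3 of 5 libraries, exact sign-flip p = 0.4375, adjusted 0.4375). It was 0.140 without HY5-VP16 replicate 1, 0.173 without HY5-SRDX replicate 2 and 1.24 without HY5-VP16 replicate 3, and it reversed to -1.11 with lists of equal length. The excess was 0.147 points ± 2.23 in HY5-VP16 (SD, n = 3) and 1.34 ± 1.54 in HY5-SRDX (SD, n = 2), a difference of -1.19 (exact permutation p = 0.5, smallest possible 0.1), which was -2.39 without HY5-VP16 replicate 1, -2.28 without HY5-SRDX replicate 1, -0.190 without HY5-VP16 replicate 3 and -0.103 without HY5-SRDX replicate 2. Where listed, close peaks had a median rank above (weaker than) that of other consensus peaks in 4 of 5 libraries, by a mean of 1.58 percentile points ± 1.04 (SD, n = 5; exact sign-flip p = 0.125). The size depended on the limit, at 3.16 points for 250 bp and 0.136 for 1000 bp (exact sign-flip p = 1), and it was 0.518 with lists of equal length. The members had medians of 28.4, 23.1, 44.9, 23.02 and 27.6 in HY5-VP16 replicates 1 to 3 and HY5-SRDX replicates 1 and 2.

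**Figure D3:**
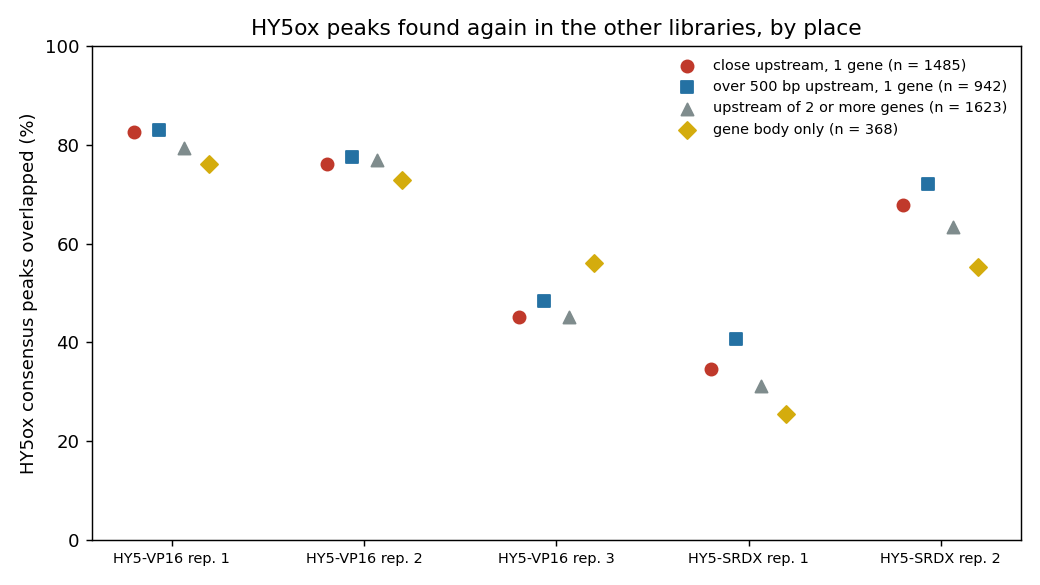
Share of HY5ox consensus peaks overlapped by a peak (y axis, %) in each HY5-VP16 and HY5-SRDX library (x axis), for 4 places relative to genes, each point 1 library. In all 5 libraries the close upstream peaks (circles) lie below the peaks over 500 bp upstream (squares), with close minus far between -6.08 and -0.350 points.

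Strength in HY5ox and finding elsewhere went together, to a different degree in each library. Members were divided by mean HY5ox rank into 4 groups of like size. In the strongest group (372 peaks), 96.2%, 93.5% and 94.6% were overlapped in HY5-VP16 replicates 1 to 3, and 51.6% and 84.9% in HY5-SRDX replicates 1 and 2. In the weakest group (371 peaks) the shares were 64.2%, 58.5% and 4.85% in HY5-VP16, followed by 19.4% and 53.6% in HY5-SRDX. HY5-VP16 replicate 3 thus listed nearly all strong members and few weak ones, while HY5-SRDX replicate 1 missed many strong members as well. Of the 262 members found in all libraries, 167 came from the strongest group and 4 from the weakest. Shares by strength are not given here for the other consensus peaks. The pattern is therefore not read as particular to close upstream peaks.

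Distance from the start site showed in HY5-SRDX more than in HY5-VP16. Members within 100 bp of the start (547) were overlapped in 28.9% and 63.6% of cases in HY5-SRDX replicates 1 and 2, and the 938 farther members in 38.1% and 70.1%. In HY5-VP16 replicates 1 to 3 the shares were 81.2%, 74.8% and 43.3% near the start and 83.4%, 76.9% and 46.1% farther out. The gap was 7.85 points ± 1.87 in HY5-SRDX (SD, n = 2) and 2.34 ± 0.340 in HY5-VP16 (SD, n = 3). The groups did not overlap, and the difference of 5.51 points had an exact permutation p of 0.1, the smallest possible for 3 libraries against 2. This comparison was chosen after the values were seen. Weighted over the 4 strength groups, the gaps were 9.31 and 6.65 points in HY5-SRDX and 2.29 to 3.13 points in HY5-VP16. The 3 libraries of HY5-VP16 called peaks of 191 to 257 bp and those of HY5-SRDX of 167 and 209 bp, and the part of peak width in the gap was not tested. The share of members found in all 5 libraries was 12.4% in the first 100 bp (68 of 547), 21.8% in the next (109 of 501) and up to 21.6% in the 3 bins beyond, each above that of the first.

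**Figure D4:**
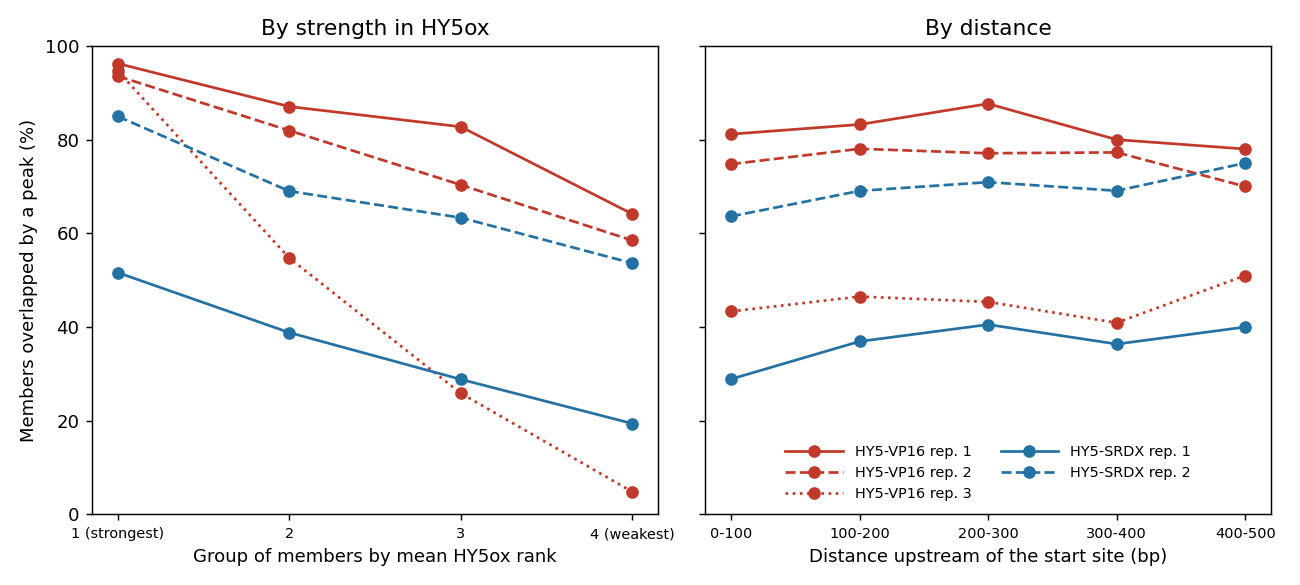
Share of close upstream members overlapped by a peak (y axis, %) in each HY5-VP16 (red) and HY5-SRDX (blue) library, by group of mean HY5ox rank (left, 1 the strongest) and by distance of the centre from the start site in bins of 100 bp (right). The dotted line, HY5-VP16 replicate 3, falls from 94.6% to 4.85% across the 4 groups, and HY5-SRDX replicate 1 starts at 51.6%.

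Some members were listed with 1 added domain and not with the other. Peaks in all 3 HY5-VP16 libraries and no HY5-SRDX library numbered 76 (5.12%, against 6.39% of all consensus peaks). The strongest by HY5ox rank was FER2 (AT3G11050), which encodes an iron-storing ferritin, with a centre 47 bp upstream. Its folds were 13.75, 8.87 and 13.08 in HY5ox and 14.82, 11.63 and 8.72 in HY5-VP16, and it stood in the top 0.505% of each HY5-VP16 list. MYB12 came next, with folds of 8.42, 8.20 and 21.60 in HY5ox and 7.33, 4.95 and 9.73 in HY5-VP16. The casein kinase gene ckl4 (AT4G28860), AT3G06520 and AVA-P1 (AT4G34720), a proteolipid subunit of the vacuolar proton pump, followed with HY5ox ranks of 3.46, 3.64 and 4.36. No HY5-SRDX peak overlapped these sites, which shows that none was listed there and not that the protein was absent.

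The reverse pattern, in both HY5-SRDX libraries and no HY5-VP16 library, was found for 10 members (0.673%, against 0.549%). TMAC2 (AT3G02140), which encodes a binding partner of ABI5 that restrains abscisic acid responses, was the strongest of them. Its peak, 404 bp upstream, had folds of 22.15, 9.52 and 17.96 in HY5ox and 7.11 and 18.55 in HY5-SRDX, and its mean HY5ox rank was 1.28. It stands apart from the others of this kind, which had HY5ox ranks of 19.4 or weaker. These began with AT5G61590 (DEWAX in the RefSeq synonyms, 19.4), the autophagy gene G18F (40.2), the chlorophyll b reductase gene NYC1 (40.8) and the phosphatase gene PFA-DSP3 (51.05). Members seen in HY5ox and in no other library were led by AT3G53830 (rank 9.61), AT5G04270 (17.03), AT4G35140 (18.6), AT2G42247 (21.5) and the histone H2B gene HTB9 (23.8). Their HY5ox folds ranged from 4.08 to 8.19.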

How the data were processed

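The submitters' processing notes name build TAIR10, HOMER 4.9.1, Bowtie2 2.3.0 and CASAVA 1.8.2. Per the file headers, HOMER findPeaks was run on each library against the control of its set, at a false discovery rate of 0.001, with 3-fold over control and 2-fold over the surrounding 10 kb required. The deposited signal is tags per 10 M, the score in the deposited lists is that of the peak caller, the deposited fold is the ratio of peak to control tags, and the deposited focus ratio is a fraction of tags near the centre (not reported). These are the authors' values, used to describe and rank peaks within a list. The column headers show control tags scaled to the tagged library, except for HY5-VP16 replicate 3, whose own tags were scaled instead.

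A gene with several listed starts counted as a member when any start met the limit. Peaks of different libraries were matched by an overlap of 1 bp or more, taking the best-scored. The library was the unit of each test, exact sign-flip over 5 libraries or exact permutation of 3 against 2, two-sided. Functions were tested on simulated data. Named genes are the 10 best-ranked in HY5ox, the 10 best-ranked among members in all other libraries, up to 5 per construct pattern and per gene list, the peaks at each limit and up to 8 symbol families of 20 or more genes. Members and lists were chosen with earlier results of these data known. Of 1485 genes, 1481 matched the RefSeq table of assembly TAIR10.1, used for names, types and lengths. Computation used scipy 1.17.1 and pandas 2.3.3 with numpy 2.4.6 in Python 3.11.15, and plots matplotlib 3.10.9. Sequences were not analysed here.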

Additional observations from a re-analysis of the deposited data

How the results depend on the processing

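Of 112 values of the 7 comparisons under other settings, 104 kept their direction and 8 reversed, and no setting brought a p under 0.05, which these designs cannot reach. The excess of close over all other consensus peaks reversed with lists of equal length (-1.11 points), a limit of 250 bp (-0.295) and, chosen after seeing the data, members with 1 listed start (-0.160). The excess over gene body peaks reversed with lists of equal length (-0.273). The difference of this excess between HY5-VP16 and HY5-SRDX reversed with peaks 5-fold over control (0.0162), equal length (0.142), HY5ox replicate 3 as anchor (0.0780) and 250 bp (0.450). The causes were not tested. Leaving out each library in turn, the mean of close minus far ranged from -3.82 to -2.39, the excess over all others from 0.140 to 1.24, over peaks upstream of 2 or more genes from 1.48 to 2.78, over gene bodies from 1.99 to 7.86 and the rank difference from 1.32 to 1.98. Other settings moved a value by over 1.5 times without turning it. The excess over all others became 0.984 with an overlap of 50%, 1.78 with the consensus of HY5ox replicates 1 and 3 and 2.01 at 1000 bp. The difference of the excess between constructs became -0.249 with that consensus, -1.94 at 1000 bp and, both chosen after seeing the data, -0.775 with the outermost start and -0.546 with 1 listed start. With single libraries left out, the share of members in HY5-VP16 minus HY5-SRDX ranged from 0.157 to 33.2. The difference of the excess then ranged from -2.39 to -0.103, and over all settings from -2.39 to 0.450. With replicate numbers 1 and 2 as a block, the share differed by 28.1 points and the excess by -0.190 (exact sign-flip p = 0.5 and 1, with 0.5 the smallest possible). The numbers form too few pairs to show a pairing. Set 1 alone gave the same differences. Anchored on HY5ox replicate 3 there were 1464 close upstream peaks of 5132. A site with no listed peak may still be bound, above all in HY5-VP16 replicate 3, which had the most tags and the lowest share of them in peaks.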

Other observations

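Among the 27 members in front of genes for RNA that is not translated, GUT15 (AT2G18440, annotated as non-coding RNA) ranked best in HY5ox, with a mean percentile rank of 4.90, and was listed in all 8 libraries. TAS3 (AT3G17185), the source of small interfering RNA that acts on auxin response factors, had a peak 181 bp upstream with a HY5ox rank of 17.3. It was listed in 7 libraries. The microRNA genes MIR825, MIR168b and MIR865 were listed in 6, 5 and 4 libraries, with HY5ox ranks of 25.5, 59.0 and 90.2. These genes were chosen after their values were seen.

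The order of members by strength was compared between libraries with Spearman's rho over the members both listed, as a description. It was 0.777 to 0.839 among the HY5ox libraries (1485 members), 0.622 to 0.877 between HY5ox and HY5-VP16 (669 to 1226 members) and 0.259 to 0.443 between HY5ox and HY5-SRDX (515 to 1006 members). Between HY5-VP16 and HY5-SRDX it was 0.315 to 0.540 (307 to 894 members). The HY5-SRDX libraries had a rho of 0.594 with each other (457 members), and the HY5-VP16 libraries 0.607 to 0.720 (599 to 1013). The highest value joined HY5ox replicate 3 and HY5-VP16 replicate 3, the pair of set 3, which share a control. The points share the genome positions and, within a set, the control library.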
